A study of Homo sapiens with 6 samples.

Results

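The unedited parental cells of a study of the zinc finger gene ZKSCAN3 in HCT116, a human colon carcinoma line, are described by the absolute mRNA level of every gene. HCT116 cells received from a national cell line bank were grown in DMEM with fetal bovine serum, and 3 cultures, named *ZK3*-WT replicates 1, 2 and 3, were each sequenced from polyadenylated RNA. They were picked by their genotype label, so 3 of the 6 libraries of the series were used and the 3 libraries of CRISPR/Cas9-edited cells were not analysed here. No level was compared with edited cells. The 3 libraries come from 1 line in 1 culture condition, with no other colon line or tissue beside them, and growth density at harvest is not given in the sources used here. The gene that was edited in the other arm, ZKSCAN3, was at 12.5, 10.8 and 8.85 TPM in replicates 1, 2 and 3, a mean of 10.7 ± 1.82 TPM (SD, n = 3) and rank 8526 of 19672 protein-coding genes.

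TPM, the unit used throughout, gives a gene's share of all transcripts after correction for transcript length, so levels of different genes can be set side by side. A gene is called expressed here when its TPM was at least 1 in each library, and silent when no read was counted in any of them. With 0 reads, a count of up to 3 reads is still allowed, which is 0.0437 to 0.0493 CPM (counts scaled to library size) in a library and 0.0152 CPM over the 3 libraries together, for counting error only. Levels of 2 genes are said to overlap when their ranges over the 3 libraries did. With 3 libraries no exact paired test between genes can pass the usual threshold, so none was run.

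A cell's mRNA is divided very unevenly. A small set of genes for translation, energy metabolism and the cytoskeleton take most of it, transcription factors and receptors stand far lower, and genes of other lineages are kept off by lack of their activators and by repressive chromatin. In the colon, stem cells at the crypt base depend on WNT signals, and their daughters become absorptive, goblet, enteroendocrine or tuft cells under factors such as CDX2, HNF4A and ATOH1. HCT116 is known as a poorly differentiated, mismatch repair deficient line with activating PIK3CA and CTNNB1 mutations.

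Between 60827060 and 68635701 reads were counted per library, on 15024 to 15259 protein-coding genes. Of 19672 protein-coding genes, 12073 (61.4%) were expressed, 3845 had reads but did not reach 1 TPM in each library, and 3754 (19.1%) were silent. A TPM of at least 10 in each library was met by 8277 genes (42.1%), at least 100 by 1028 (5.23%) and at least 1000 by 96. The median expressed gene had a mean of 20.5 TPM. Close to the threshold of 1 TPM, the lowest library of SPX, CLEC3B and P3H2 just reached it at 1.00, 1.01 and 1.01 TPM, and that of RBBP8NL, SLC25A48 and ZNF214 missed it at 0.996, 0.998 and 0.999 TPM. In each library 155 to 179 genes of any type held 50% of all TPM.

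**Figure D1:**
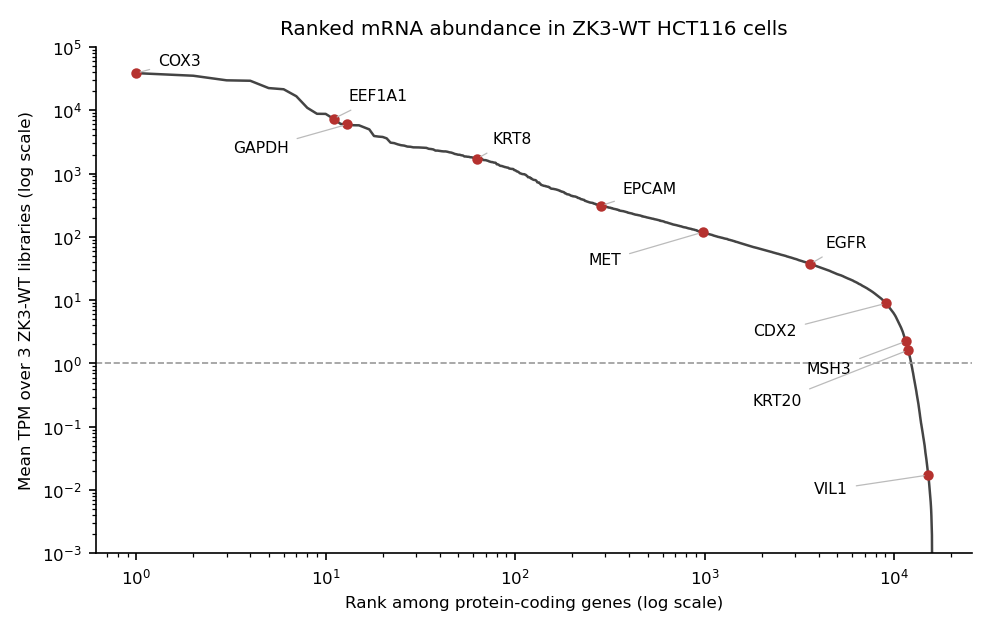
Mean TPM over the 3 *ZK3*-WT libraries (log scale) against rank among 19672 protein-coding genes (log scale), with 11 named genes as red points and a dashed line at 1 TPM. Levels fall from 38654 TPM for COX3 through 312 TPM for EPCAM and 37.4 TPM for EGFR to 0.0173 TPM for VIL1, and the curve drops steeply below 1 TPM.

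The mitochondrial genome supplied the top of the ranking. Its genes held 26.3 ± 1.35% of all TPM (SD, n = 3), and its 13 protein genes filled ranks 1 to 10, 12 and 14 and one place further down. COX3, a core subunit of cytochrome c oxidase, led with 37775, 40165 and 38022 TPM in replicates 1, 2 and 3. ATP6, a subunit of the ATP synthase, followed with 36148, 36657 and 32670 TPM. Every COX3 value was above every ATP6 value. COX1 had a mean of 29755 TPM and COX2 of 29286 TPM, with overlapping ranges. ATP8 lies partly inside ATP6 and ND4L partly inside ND4, so the split of reads within these pairs is uncertain. By reads, without the correction for length, the mitochondrial share was 11.2 ± 0.513%.

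The highest nuclear gene was EEF1A1, which carries aminoacyl-tRNA to the ribosome, with 7007, 7624 and 7395 TPM. GAPDH, the glycolytic dehydrogenase, had 8308 TPM in replicate 1 and 4723 and 4938 TPM in replicates 2 and 3. Its level in replicate 1 was thus above EEF1A1 and in the others below it. The remaining nuclear genes among the 20 highest were ribosomal proteins, namely RPS2 with a mean of 5788 TPM, RPS18 with 5372, RPLP0 with 4993, RPL8 with 3926, RPL12 with 3843 and RPL3 with 3791 TPM. As a group, 84 of 87 cytosolic ribosomal protein genes were expressed and 81 exceeded 100 TPM in each library. They held 13.5 ± 0.402% of all TPM and 18.4 ± 0.334% of nuclear TPM (SD, n = 3). EEF1A1 and many ribosomal protein genes have near-identical processed pseudogenes, and some reads may have been split among them. EEF1A1P5, for example, was counted at 1465 ± 49.1 TPM.

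Among genes that do not encode protein, mitochondrial RNAs again led, with the large ribosomal RNA RNR2 at 15102 TPM, TRNS1 at 4297, RNR1 at 2696, TRNY at 2191 and TRNL1 at 1282 TPM. Selection of polyadenylated RNA sets what such genes contribute, so these values are no measure of total ribosomal or transfer RNA. The other high entries were the snoRNA host genes SNHG29 with 1129 TPM and GAS5 with 857 TPM, the pseudogenes EEF1A1P5 and RPS2P5 (826 TPM), and MIR1244-2 with 604 TPM. MIR1244-2 is a microRNA gene that a short RNA library, not this one, would measure. GAS5 had 540, 916 and 1115 TPM, with replicate 1 the lowest.

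The start sites of the most abundant nuclear genes are shown because mRNAs of the translation machinery are known to begin with a C and a run of pyrimidines, through which their translation is regulated. Each line gives 60 bases before and 15 bases from the annotated start (GRCh37, strand of the gene), at chr6:74230741-74230815 (minus) for EEF1A1, chr16:2014813-2014887 (minus) for RPS2, chr6:33239792-33239866 (plus) for RPS18 and chr12:120638900-120638974 (minus) for RPLP0. Capitals mark the first 5 transcribed bases.
EEF1A1: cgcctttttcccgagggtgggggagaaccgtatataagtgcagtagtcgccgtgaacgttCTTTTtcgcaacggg
RPS2: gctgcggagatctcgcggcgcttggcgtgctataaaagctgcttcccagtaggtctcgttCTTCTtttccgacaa
RPS18: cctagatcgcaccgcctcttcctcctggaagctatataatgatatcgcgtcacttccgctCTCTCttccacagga
RPLP0: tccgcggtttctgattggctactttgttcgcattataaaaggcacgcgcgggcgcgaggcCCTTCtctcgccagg
All 4 start with C and 4 further pyrimidines (C or T). RPS2 and RPLP0 also hold TATAAA upstream of the start, but few members of their family do. In the window set for this motif further below, 4 of 84 expressed ribosomal protein genes (4.76%) held it. The share was 3.98% of all protein-coding genes with a matched start. Such a pyrimidine start was found at 61 of 84 expressed ribosomal protein genes (72.6%), against 4.71% of the 18849 protein-coding genes with a matched start.

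The cells carried the transcripts of a simple epithelium at high level. Of 43 genes of epithelial structure, 36 were expressed and 10 exceeded 100 TPM in each library, where 61.4% and 5.23% of all protein-coding genes did. KRT8 and KRT18, the paired keratins of simple epithelia, had 1449, 1820 and 1917 TPM and 828, 1348 and 1407 TPM in replicates 1, 2 and 3. Both were lowest in replicate 1, and KRT8 was above KRT18 in each library. KRT19, which pairs with KRT8 in gut and duct epithelium, had 1130, 971 and 1149 TPM, a range that overlapped KRT18. Ezrin (EZR), which links membrane to actin, averaged 1246 ± 319 TPM. Among adhesion genes, EPCAM had 312 ± 23.4 TPM, CLDN7 231 ± 46.1 TPM, JUP 193 ± 20.4 TPM, CLDN4 191 ± 8.68 TPM and E-cadherin (CDH1) 64.3 ± 9.12 TPM. The epithelial splicing factor ESRP1 reached 164 ± 32.0 TPM. The 7 members that were not expressed included 5 genes of the differentiated enterocyte, namely villin (VIL1) with 5, 0 and 7 reads, MYO1A, CDHR2, CDHR5 and the intestinal cadherin CDH17, all with a mean below 0.21 TPM. OVOL2, a repressor of mesenchymal genes, had 0.916 TPM and CLDN1 0.202 TPM.

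Of 25 transcription factors of the intestine, 13 were expressed (52.0%, beside 61.4% of all protein-coding genes). TCF7L2, the nuclear partner of beta-catenin, had 128, 131 and 107 TPM, and SOX9, a crypt factor, had 91.5, 117 and 97.8 TPM. Both stood far above CDX2, the master regulator of intestinal identity, with 9.18, 9.20 and 8.35 TPM. HNF4A had 4.07 ± 0.399 TPM and GATA6 5.22 ± 1.04 TPM. CDX1, GATA5, ISX and ASCL2 had 0 reads in each library, and ATOH1, which directs secretory fate, stayed at 0.0790 TPM. CDX2 was covered by 965, 1032 and 968 reads, and its relative CDX1 by none.

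Few genes of mature colon cells passed the threshold, where 61.4% of all protein-coding genes did. Of 24 colon antigens, 4 were expressed, with DPP4 the highest at 5.28, 4.10 and 3.81 TPM, followed by MUC3A, SLC15A1 and MUC1. With 0 reads stood 8 of them (beside 19.1% of all protein-coding genes), namely GUCY2C, CEACAM5, CEACAM6, CEACAM7, FABP1, FABP2, PHGR1 and TSPAN8. Absorptive cell markers were expressed in 3 of 15, goblet markers in 1 of 11, enteroendocrine markers in 0 of 11 and tuft markers in 2 of 7. The summed level of each list was 22.7 to 31.9 TPM over the libraries for absorptive, 2.88 to 4.06 TPM for goblet, 1.16 to 1.697 TPM for enteroendocrine and 2.82 to 4.23 TPM for tuft markers. Carbonic anhydrase CA2 (14.3 ± 3.35 TPM) and the sulfate transporter SLC26A2 (9.70 ± 2.47 TPM) made up most of the first sum. KRT20, the keratin of surface colonocytes, had 1.62 ± 0.517 TPM, just above the threshold. The goblet gene FCGBP had 3.43 ± 0.695 TPM, while the mucin MUC2 had 0.0398 TPM and TFF3, AGR2 and CLCA1 had 0 reads.

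Stem cell markers ranged from high levels to 0 reads. Of 17, 12 were expressed (70.6%) and 4 had 0 reads, where 61.4% and 19.1% of all protein-coding genes did. CD44, an adhesion receptor of crypt base and tumour cells, had 238, 316 and 214 TPM. ALCAM had 60.9 ± 7.06 TPM, BMI1 47.9 ± 5.54 TPM and PROM1 18.1 ± 4.35 TPM. The E3 ligases RNF43 and ZNRF3, which remove WNT receptors, had 60.1 ± 16.4 and 8.49 ± 1.14 TPM. AXIN2, a target and brake of the WNT pathway, had 17.8, 11.9 and 7.85 TPM, and its range was the widest of these in proportion to its mean. LGR5, ASCL2, OLFM4 and SMOC2, the markers most used for the crypt base cell, were silent.

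**Figure D2:**
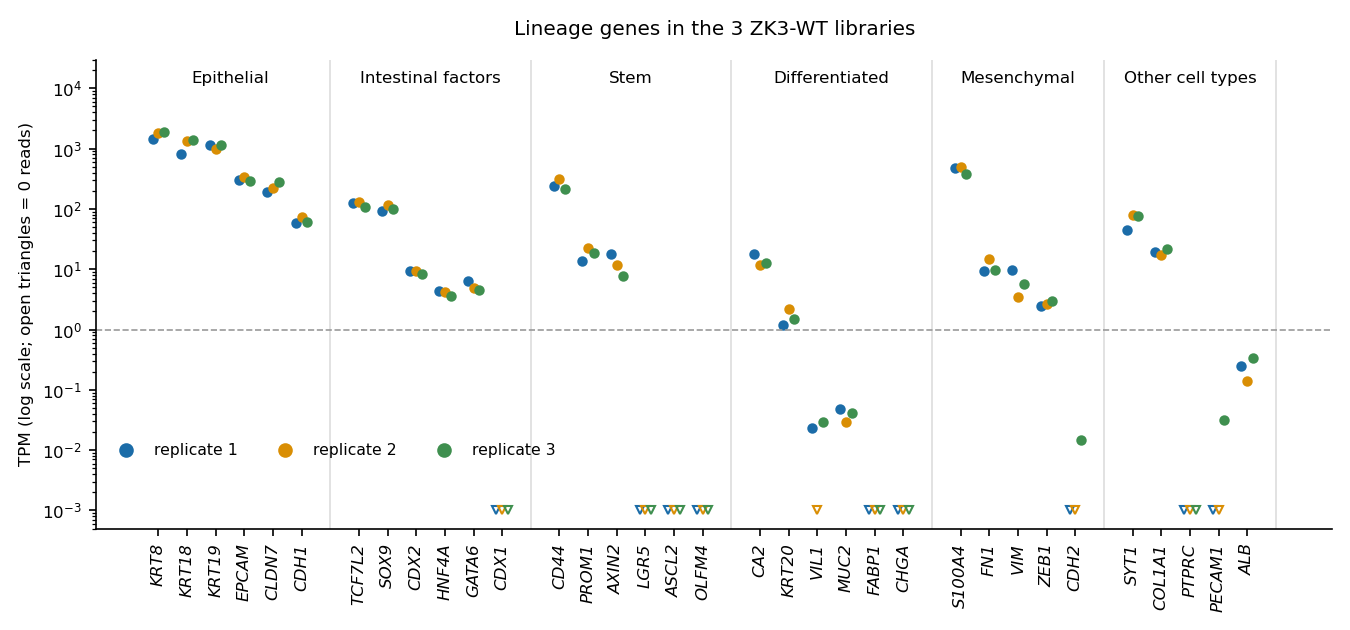
TPM (log scale) of 34 lineage genes in replicate 1 (blue), replicate 2 (orange) and replicate 3 (green), where open triangles at the bottom stand for 0 reads and the dashed line for 1 TPM. The 6 epithelial genes lie above the dashed line in all libraries, and S100A4, SYT1 and COL1A1 are clearly present. CDX1, LGR5, ASCL2, OLFM4, FABP1, CHGA and PTPRC are among the genes with triangles in all 3.

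The mesenchymal list was mixed, with 8 of 14 expressed (57.1%, beside 61.4% of all protein-coding genes). S100A4, a calcium-binding protein of motile cells, had 468, 497 and 385 TPM and stood far above the rest. ITGA5 had 59.1 ± 4.14 TPM, SNAI1 13.7 ± 0.698 TPM and FN1 11.2 ± 3.01 TPM. Vimentin (VIM) had 9.60, 3.45 and 5.79 TPM, and ZEB1, a repressor of E-cadherin, had 2.44, 2.66 and 2.98 TPM. N-cadherin (CDH2), ZEB2, SNAI2 and MMP2 were below 0.14 TPM, and CDH11 and TWIST2 had 0 reads.

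Markers of other cell types were checked in the same way, since the label names a single epithelial line. Of all protein-coding genes, 61.4% were expressed. Leukocyte genes were expressed in 1 of 11 (the lysosomal CD68, 7.15 ± 4.53 TPM), with the defining PTPRC, CD3E, CD3D, MS4A1 and NKG7 at 0 reads and a summed level of 4.57 to 13.4 TPM. Fibroblast genes were expressed in 2 of 11. COL1A1 had 19.2, 17.3 and 21.4 TPM, and its partner chain COL1A2 had 0.0132 TPM, with FAP, POSTN and THY1 at 0 reads. Neuronal genes were expressed in 2 of 7. The synaptic vesicle calcium sensor SYT1 had 44.3, 78.3 and 75.7 TPM, and the microtubule protein MAP2 had 9.90 ± 3.01 TPM, while STMN2 and GAP43 had 0 reads. The remaining lists held ESAM for endothelium (1 of 7), TNNT2 and DES for muscle (2 of 7), SERPINA1 for liver (1 of 7), EPOR, HBA1 and HBA2 for red cells (3 of 6), PMEL and MITF for melanocytes (2 of 5) and no pluripotency or germ cell gene (0 of 8). HBA1 and HBA2 are near-identical copies, and reads cannot be assigned between them with confidence.

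Start sites are shown for a pair of silent lineage genes, because CpG-dense starts can be silenced by methylation and are otherwise usually permissive. The windows are chr5:149546281-149546355 for CDX1 and chr13:53602888-53602962 for OLFM4, both GRCh37 and on the plus strand, with 60 bases before and 15 from the annotated start. Capitals mark CpG dinucleotides.
CDX1: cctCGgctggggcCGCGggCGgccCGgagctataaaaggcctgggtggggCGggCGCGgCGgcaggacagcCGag
OLFM4: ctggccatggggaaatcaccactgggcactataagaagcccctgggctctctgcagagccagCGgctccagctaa
In the 300 bases around the start, CDX1 held 35 CpG dinucleotides and OLFM4 held 3, and neither gene had a read. DNA methylation was not measured here.

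Receptor tyrosine kinases, which relay growth factor signals across the membrane, were expressed in 33 of 58 cases (56.9%, beside 61.4% of all protein-coding genes). The ephrin receptor EPHA2 ranked first with 106, 190 and 217 TPM. The collagen receptor DDR1 had 123, 155 and 152 TPM, the WNT coreceptor PTK7 125, 166 and 128 TPM, and the hepatocyte growth factor receptor MET 120, 127 and 108 TPM. The ranges of these 4 overlapped in turn, so their order is not resolved, while each of them was above every library of EPHB4 (54.2 ± 0.911 TPM). AXL had 37.0, 50.2 and 71.4 TPM and thus spread more than its neighbours EPHB4 and RYK (51.8 ± 3.18 TPM). FGFR1 had 44.9 ± 1.17 TPM and FGFR4 43.0 ± 2.48 TPM.

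Within the ERBB family, ERBB2 had 40.4, 43.7 and 38.4 TPM, EGFR 35.2, 41.9 and 35.2 TPM, and ERBB3 30.6, 29.6 and 27.5 TPM. ERBB2 and EGFR overlapped, and both were above ERBB3 in every library. ERBB4 was at 0.0559 TPM. EGFR, the antibody target in colorectal cancer, ranked 3616. The mRNA of amphiregulin (AREG), one of its ligands, was at 434, 1068 and 1484 TPM, with replicate 1 the lowest. The insulin receptor INSR (11.6 ± 1.81 TPM) stood above IGF1R (4.37 ± 1.09 TPM) in each library. RET had 5.40 ± 1.04 TPM. KIT, PDGFRA, FLT1, ROS1, MUSK and NTRK2 had means below 0.01 TPM, and EPHA3, EPHA5, EPHA6, EPHA7 and ALK had 0 reads. Of 33 expressed kinases, 6 did not overlap with the next one in the order.

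**Figure D3:**
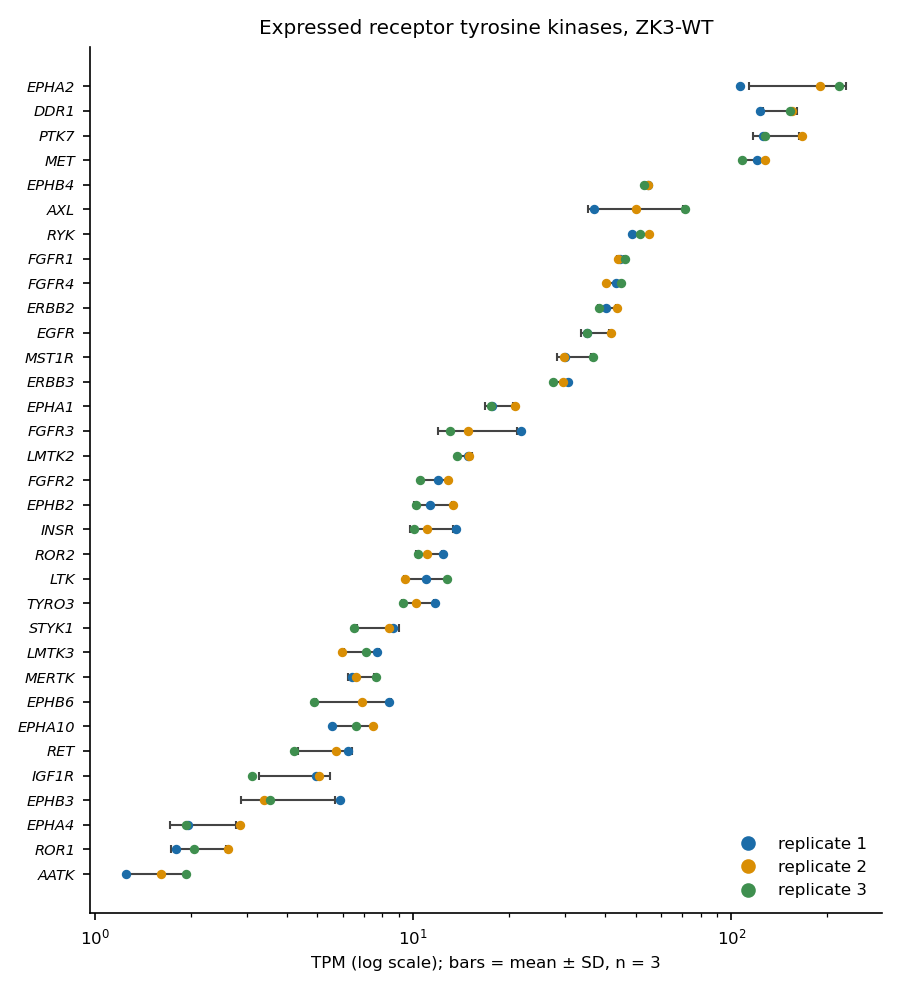
TPM (log scale) of the 33 expressed receptor tyrosine kinases, ordered by mean, with a point for each *ZK3*-WT library and bars for mean ± SD (n = 3). EPHA2, DDR1, PTK7 and MET form an overlapping upper group above 100 TPM, and replicate 1 (blue) is the lowest library of EPHA2 and AXL.

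WNT receptors were expressed in 10 of 15 (66.7%, beside 61.4% of all protein-coding genes). The frizzled receptor FZD6 led with 47.2 ± 7.18 TPM and the coreceptor LRP5 followed with 42.1 ± 3.43 TPM, overlapping it, while LRP6 had 17.2 ± 2.39 TPM. Of the R-spondin receptors, LGR4 had 6.63, 6.14 and 2.95 TPM, LGR6 0.536 TPM and LGR5 0 reads. FZD10 also had 0 reads. Of 14 receptors of the TGF-beta superfamily 9 were expressed (64.3%), also near the share of all genes. TGFBR2, which is known to carry a frameshift in mismatch repair deficient colon cancers, had 22.8, 40.4 and 32.4 TPM. It overlapped with the type I receptor ACVR1B (21.0 ± 1.87 TPM) and was above TGFBR1 (16.4, 17.9 and 13.6 TPM) in each library. The endothelial receptors ACVRL1 and ENG had 1.05 and 0.313 TPM.

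Cytokine and death receptors were expressed in 28 of 40. The TWEAK receptor TNFRSF12A had 140, 363 and 450 TPM and the TRAIL receptor TNFRSF10B had 117, 193 and 270 TPM. Both were lowest in replicate 1. The other TRAIL receptors were lower, at a mean of 29.6 TPM for TNFRSF10A, 34.8 ± 10.3 TPM for the decoy TNFRSF10D and 4.17 ± 0.514 TPM for TNFRSF10C. TNFRSF1A had 101 ± 9.35 TPM and its relative TNFRSF1B 0.315 TPM. FAS had 5.61 ± 0.647 TPM. The 4 interferon receptors on the list were expressed, from IFNAR2 with a mean of 15.97 TPM to IFNGR2 with 71.1 ± 13.2 TPM. Toll-like receptors were low, with TLR6 the highest at 3.33 ± 0.244 TPM and TLR2, TLR4 and TLR8 at 0 reads.

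Nuclear receptors, transcription factors that bind small lipophilic ligands, were expressed in 25 of 48 (52.1%, beside 61.4% of all protein-coding genes). NR2F1, an orphan receptor of developing tissues, was the highest with 83.0, 121 and 110 TPM and did not overlap with the next, NR2F6 (69.7 ± 5.37 TPM). The circadian repressors NR1D1 and NR1D2 had 68.8 ± 15.3 and 58.7 ± 5.40 TPM. Retinoid receptors were uneven, with RARG at 52.6 ± 3.27 TPM, RXRB at 39.0 ± 3.37 TPM, RARA at 24.2 ± 3.97 TPM and RARB at 0 reads. PPARD (33.8 ± 0.649 TPM) exceeded PPARG (21.3 ± 2.33 TPM) in each library. The vitamin D receptor VDR had 9.06 ± 0.472 TPM and the glucocorticoid receptor NR3C1 9.44 ± 1.25 TPM. Receptors for oestrogen and progesterone did not pass the threshold, with ESR1 and PGR at 0 reads and ESR2 at 0.203 TPM. The bile acid receptor NR1H4 and the xenobiotic receptor NR1I2 were below 0.02 TPM.

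Nearly all colorectal cancer drivers were expressed, 54 of 57 (94.7%, beside 61.4% of all protein-coding genes), and none was at 0 reads. Cyclin D1 (CCND1) was the highest with 250, 366 and 352 TPM. The cell cycle inhibitor CDKN1A had 210, 224 and 315 TPM, MYC 109, 225 and 198 TPM and CTNNB1, which encodes beta-catenin, 198, 176 and 158 TPM. MYC had its lowest and CTNNB1 its highest value in replicate 1. The GTPase genes NRAS, at 45.9 ± 2.60 TPM, and HRAS, at 47.5 ± 2.91 TPM, overlapped. The kinase BRAF, which acts downstream of them, had 15.6 ± 1.92 TPM. PIK3CA had 9.24 ± 0.567 TPM and its relative PIK3CB 22.6 ± 1.47 TPM. AKT1 had 118 ± 7.17 TPM and AKT2 42.1 ± 2.19 TPM.

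The ubiquitin ligase gene MDM2 and its relative MDM4 had 51.0 ± 4.39 and 26.0 ± 1.27 TPM. Tumour suppressors were present as mRNA. CDKN2A, which is known to be frameshifted in HCT116, had 71.5, 78.4 and 92.2 TPM. SMAD4 had a mean of 20.1 TPM, RB1 25.9 ± 1.67 TPM, FBXW7 9.96 ± 0.539 TPM and APC 9.69 ± 0.968 TPM. CDKN2B had 7.43, 23.4 and 24.8 TPM, so replicate 1 lay well below the others. Below the threshold were MYCN, at 0.00704 TPM beside MYC, and CCND2, at 0.00594 TPM beside CCND1 and CCND3 (27.8 ± 2.42 TPM).

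All 14 mismatch repair genes had at least 1 TPM in each library. PCNA, the replication clamp, was the highest with 192, 114 and 110 TPM. Of the subunits that recognise mismatches, MSH6 had 26.1 ± 3.92 TPM, and MSH3 had 2.26, 2.42 and 2.04 TPM and lay below it in each library. PMS2, which acts after recognition, had 18.1, 22.3 and 20.1 TPM. These are mRNA levels and carry no information on the protein. MGMT, which reverses alkylation of guanine, had 3.87 ± 0.391 TPM and TERT, the telomerase catalytic subunit, 3.02 ± 0.259 TPM. Of the DNA methyltransferases, DNMT1 had 80.1 ± 8.10 TPM, DNMT3B 28.3 ± 3.14 TPM and DNMT3A 10.4 ± 0.609 TPM, in that order in each library, and the cofactor DNMT3L had 0 reads.

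Genes that handle the drugs given for colon cancer were expressed in 20 of 23 (87.0%, beside 61.4% of all protein-coding genes). GSTP1, a glutathione transferase, had 869 ± 125 TPM. The irinotecan target TOP1 had 178, 205 and 244 TPM and the fluorouracil target TYMS 187, 106 and 117 TPM. DPYD, which degrades fluorouracil, had 1.68, 1.33 and 1.09 TPM. The efflux pump genes ABCC2 (57.1 ± 17.7 TPM), ABCC1 (48.9 ± 2.65 TPM) and ABCC3 (14.9, 36.1 and 54.1 TPM) were higher than ABCB1 (3.95 ± 0.195 TPM) and ABCG2 (1.45 ± 0.308 TPM). The carboxylesterase CES2 had 25.1 ± 2.91 TPM and CES1 0 reads. UGT1A1 and UGT1A6 had 0 reads, but genes of the UGT1A locus share their last exons and reads there may not have been assigned.

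Of 12 genes of class I antigen presentation, 11 were expressed (91.7%, beside 61.4% of all protein-coding genes). B2M had 631 ± 26.6 TPM, HLA-C 425 ± 8.45 TPM and HLA-B 252 ± 31.3 TPM. The HLA genes are polymorphic and alike, which makes counts against 1 reference uncertain. The immunoproteasome subunit PSMB9 had 11.2 ± 1.19 TPM and PSMB8 missed the threshold in 1 library with 0.839, 1.11 and 1.11 TPM. The class II activator CIITA had 0.0654 TPM, and HLA-DRA had 6.67 ± 2.08 TPM. Of the checkpoint ligands, CD276 had 41.6 ± 3.09 TPM, CD274 (PD-L1) 2.34 ± 0.422 TPM and PDCD1LG2 0 reads. Interferon-stimulated genes ranged from ISG15 with 224 ± 45.0 TPM to IFI44L with 0.0549 TPM, and 12 of 15 were expressed (80.0%).

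Of 34 genes of glycolysis and its isoenzymes, 23 were expressed (67.6%, beside 61.4% of all protein-coding genes). The isoenzymes of several steps stood far apart in level. All 3 genes of phosphofructokinase were high, with PFKP at 169 ± 20.6 TPM, PFKL at 120 ± 16.4 TPM and PFKM at 107 ± 5.46 TPM. For aldolase, ALDOA had 978 ± 395 TPM and ALDOC 66.5 ± 39.2 TPM. Enolase was ENO1 (2103 ± 451 TPM) above ENO2 (58.6 ± 30.3 TPM) and ENO3 (18.8 ± 3.26 TPM). Pyruvate kinase was PKM (1377 ± 245 TPM), with PKLR at 0.0274 TPM. Lactate dehydrogenase was LDHB (1249, 1072 and 1080 TPM) and LDHA (874, 425 and 424 TPM), LDHB being higher in each library and LDHC at 0 reads. Glucose uptake rested on SLC2A1 (157 ± 17.8 TPM) and SLC2A3 (24.9 ± 2.86 TPM), with SLC2A2 at 0 reads. The expressed hexokinases were HK1 (76.3, 67.0 and 63.6 TPM), HK2 (32.1 ± 1.10 TPM) and HKDC1 (5.93, 15.3 and 22.8 TPM). Cholesterol synthesis and uptake genes were expressed in all 20 cases, from MVK (10.9 ± 0.213 TPM) to FDPS (139 ± 13.2 TPM).

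HOX genes, which record position along the body axis, were expressed in 27 of 39 (69.2%), close to the 61.4% of all protein-coding genes, but unevenly over the 4 clusters. Expression was found for 10 of 11 HOXA, 9 of 10 HOXB, 6 of 9 HOXC and 2 of 9 HOXD genes. HOXA9 had 103, 92.2 and 79.7 TPM, HOXB9 42.9, 78.8 and 84.5 TPM and HOXB6 57.1, 65.0 and 53.3 TPM. The range of HOXB9 overlapped with those of HOXA9, HOXB6 and HOXB7. HOXB7 (45.1 ± 0.670 TPM), HOXB5 (33.0 ± 2.52 TPM) and HOXB8 (25.9 ± 1.71 TPM) followed, and none of these overlapped with the next in the order. HOXB13, a factor of the hindgut and prostate, had 8.07 ± 1.85 TPM, HOXA13 2.14 ± 0.795 TPM and HOXD13 0.0551 TPM. Summed over their members, HOXB reached 244 to 299 TPM, HOXA 133 to 177 TPM, HOXC 27.7 to 36.3 TPM and HOXD 7.55 to 9.47 TPM per library, with no overlap between clusters.

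Cancer-testis antigens, germline genes that some tumours switch on, were expressed in 5 of 20, and 11 had 0 reads. Of all protein-coding genes, 61.4% were expressed and 19.1% had 0 reads. MAGEB2 had 132, 129 and 130 TPM, a CV (the SD as a share of the mean) of 1.22%. MAGEA3 had 64.1, 85.7 and 90.7 TPM and its near-identical neighbour MAGEA6 6.28 ± 1.26 TPM, a split that is uncertain. PRAME had 38.7 ± 5.22 TPM. MAGEA1, MAGEA4, MAGEC1, MAGEC2, CTAG1B, CTAG2 and GAGE1 had 0 reads.

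Several gene families were mostly silent. Of 395 olfactory receptor genes, 350 had 0 reads in each library, where 19.1% of all protein-coding genes did. The same held for 76 of 93 keratin-associated protein genes of hair, 37 of 39 beta-defensin genes, 23 of 28 late cornified envelope and small proline-rich genes of skin, 9 of 10 pregnancy-specific glycoprotein genes and 13 of 17 type I interferon genes. Even among keratins, 23 of 55 had 0 reads and 10 were expressed. Replication-dependent histone genes were expressed in 15 of 67, with H2BC12 at 31.8 TPM the highest, but most of their mRNAs lack a poly(A) tail and are not captured by selection for it.

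The threshold was passed by 6 olfactory receptor genes, and 4 of them lie together on chromosome 11. OR51B5 had 124, 94.8 and 97.4 TPM, OR51B4 51.9 ± 1.09 TPM, OR51B2 19.5, 22.5 and 23.3 TPM and OR51I1 2.80, 1.48 and 1.73 TPM. They lie between chr11:5322244 and chr11:5526882 on the minus strand (GRCh37), next to the beta-globin locus. Embryonic epsilon-globin, HBE1, was transcribed there at 198, 202 and 201 TPM from 3724, 4074 and 4177 reads. The fetal genes HBG2 and HBG1 had 7.51 ± 1.37 and 2.25 ± 0.708 TPM, adult HBD had 0 reads, and adult HBB had 0, 3 and 0 reads. In the annotation HBE1, HBG2 and OR51B5 have transcripts that reach to a shared upstream region and overlap (chr11:5289575-5526882 for HBE1 and chr11:5324674-5526882 for OR51B5), and HBG1 and HBG2 are near-identical, so the split of reads among these genes is uncertain. OR51B6, OR51Q1, OR51M1 and OR51I2, plus-strand genes inside the same span, had at most 2 reads per library.

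Level and sequence at the start site were related, mainly as a step between genes below the threshold and expressed genes. From 10 TPM upward the number of CpG dinucleotides showed no steady rise. Promoter windows of 300 bases (250 before to 50 after the annotated start, GRCh37) were matched by symbol for 18849 of 19659 nuclear protein-coding genes. The median number of CpG dinucleotides was 6 in silent genes, 10 in genes with reads below the threshold, 26 in expressed genes under 10 TPM, and 29 both from 10 to 100 and from 100 to 1000 TPM. Ribosomal protein genes had 25 and the other genes at 1000 TPM or more had 31, beside 23 for all genes. Fewer than 5 CpG were found in 44.1% of silent genes and 1.26% of genes between 100 and 1000 TPM. The relation had exceptions on both sides. In 13 genes at 100 to 1000 TPM the window held under 5 CpG, among them ANXA1, a phospholipid-binding protein (697 ± 209 TPM, 0 CpG), HBE1 (3 CpG) and OR51B5 (4 CpG). Conversely, 566 of 3460 silent genes (16.4%) held at least 25 CpG, among them VLDLR with 49.

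**Figure D4:**
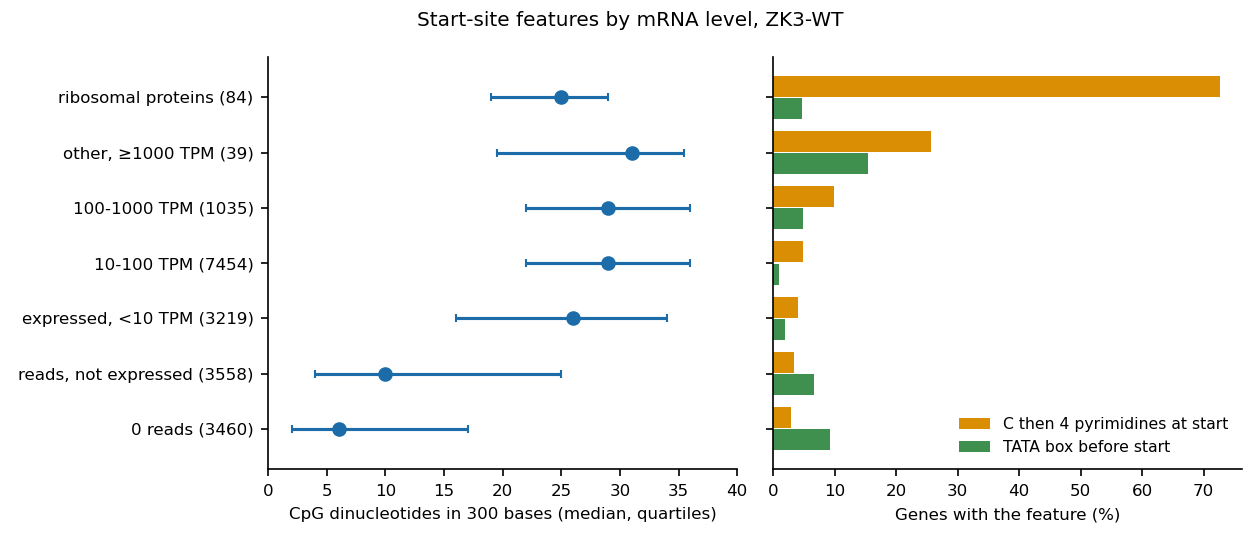
Left, median and quartiles of the number of CpG dinucleotides in 300 bases around the start for 7 groups of nuclear protein-coding genes ordered by level (number of genes in brackets). Right, percent of genes whose transcript starts with C and 4 pyrimidines (orange) and percent with TATAAA 16 to 40 bases before the start (green). The median falls from 29 CpG at 100 to 1000 TPM to 6 in silent genes, and the pyrimidine start stands out in ribosomal protein genes at 72.6%.

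The motif TATAAA, on the gene's strand and wholly within bases 40 to 16 before the start, was present in 3.98% of all genes. Its share was 9.28% of silent genes, 0.953% of expressed genes at 10 to 100 TPM and 15.4% (6 of 39) of genes at 1000 TPM or more other than ribosomal protein genes. In genes at 100 to 1000 TPM the share was 4.93%, and in expressed ribosomal protein genes 4.76% (4 of 84). Both lie near the share of all genes, so the highest value rests on 6 genes. Anywhere in the 300 bases and on either strand, TATAAA was found in 9.46% of all genes. The pyrimidine start was present in 25.6% of those 39 genes and in 2.89% of silent genes. Starts were taken from 1 annotated transcript a gene and were not measured in these cells.

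The 3 cultures were close for most genes. The median CV of expressed protein-coding genes was 11.6%, against 2.09% expected from counting alone. It was 15.3% at 1 to 10 TPM, 10.6% at 10 to 100, 10.4% at 100 to 1000 and 6.05% above 1000 TPM (107 genes). A CV above 25% was found in 1259 of 12073 genes (10.4%). The common biological coefficient of variation, estimated by edgeR on the counts of 17336 genes, was 17.8%. Replicates 2 and 3 were closer to each other than either was to replicate 1. Their log2(TPM + 1) values correlated with a Pearson r of 0.992 across genes, against 0.982 for each pair with replicate 1, where genes are not independent replicates. A difference of more than 2-fold on that scale was seen in 18 genes between replicates 2 and 3, 119 between 1 and 2 and 129 between 1 and 3. Without replicate 1 the median CV was 7.65% and the biological coefficient of variation 13.7%. Separate cultures are given as biological triplicates, with no harvest date or batch beyond the number.

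The differences between cultures ran along gene groups. Over all expressed genes, 4231 were highest in replicate 1, 4459 in replicate 2 and 3383 in replicate 3. Of 25 proliferation genes, all 25 were highest in replicate 1. MKI67, a marker of cycling cells, had 148, 101 and 94.9 TPM, the anaphase activator CDC20 265, 141 and 182 TPM, and the replication helicase subunit MCM7 255, 167 and 185 TPM. Replicate 1 was the highest for each of these 3 genes. Nuclear genes of the respiratory chain were highest in replicate 1 in 73 of 81 cases, with a median deviation from the mean of the 3 libraries of 0.18 on the log2(TPM + 1) scale. Hypoxia genes were highest there in 11 of 14 expressed members and glycolysis genes in 16 of 23. LDHA is counted in both lists, so these counts are not independent. BNIP3, a mitophagy receptor induced by low oxygen, had 57.6, 21.8 and 24.2 TPM, ANGPTL4 19.3, 6.19 and 7.57 TPM, and LDHA 874, 425 and 424 TPM. VEGFA, though on the hypoxia list, went the other way with 54.6, 97.2 and 120 TPM.

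Other groups were low in replicate 1. None of 15 immediate early genes, which respond within minutes to growth factors and stress, was highest there. EGR1 had 74.7, 233 and 228 TPM, JUN 16.8, 57.3 and 51.8 TPM and IER3 685, 1409 and 1869 TPM. Of 17 expressed genes of the amino acid stress response driven by ATF4, 16 were highest in replicate 3 and none in replicate 1. DDIT3 had 98.5, 240 and 272 TPM, TRIB3 138, 274 and 326 TPM and CHAC1 52.5, 105 and 138 TPM. ATF4 itself had 552, 427 and 687 TPM, so replicate 2 and not replicate 1 was its lowest. Stem cell markers were highest in replicate 2 in 11 of 12 cases, by a median deviation of 0.19 on the log2(TPM + 1) scale. These counts use TPM as deposited. Scaling the reads by TMM factors, DESeq2 size factors or the library total alone gave the same 25, 11 and 16 for proliferation, hypoxia and amino acid stress genes and again 0 immediate early genes highest in replicate 1, and 10 in place of 11 for stem cell markers. Other scalings were not tried for the respiratory chain genes. Proliferation, respiratory chain and hypoxia genes were mostly highest in replicate 1, and no expressed amino acid stress or immediate early gene was. These differences lie between single libraries, so culture state, handling and library preparation cannot be told apart.

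**Figure D5:**
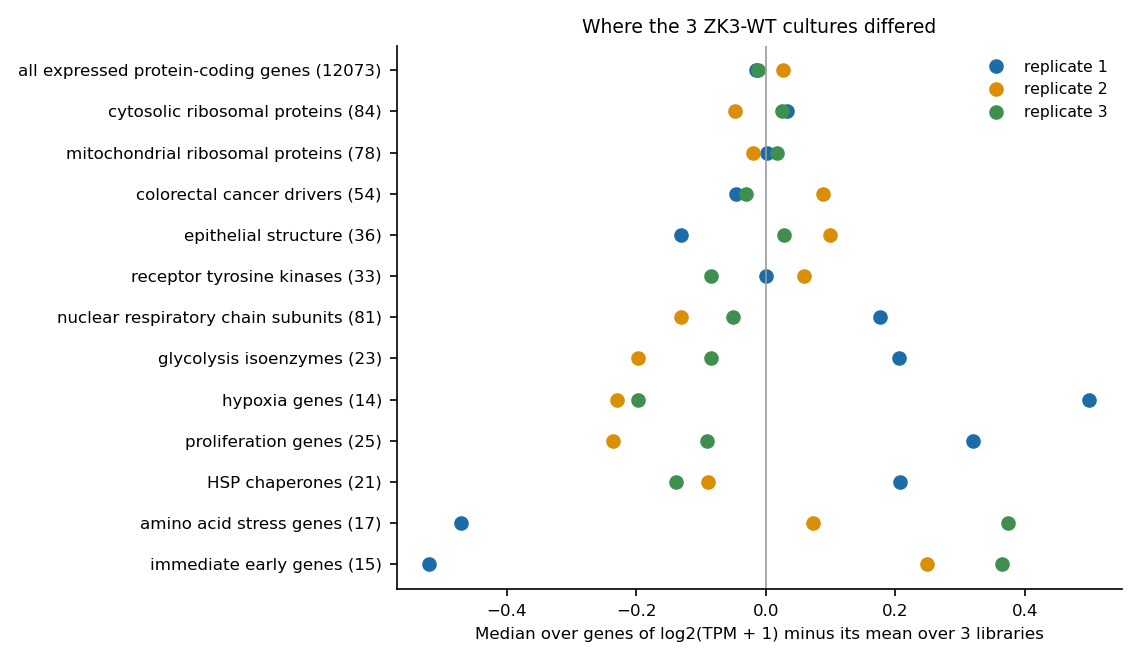
Median over the expressed genes of each list (number in brackets) of log2(TPM + 1) in a library minus its mean over the 3 libraries, for replicates 1 (blue), 2 (orange) and 3 (green). Replicate 1 lies 0.50 above the mean for hypoxia genes and 0.52 below it for immediate early genes, while for ribosomal proteins all 3 lie within 0.05.

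Among genes with a mean of at least 10 TPM, the 10 with the largest SD of log2(TPM + 1) were LURAP1L, TNFSF18, LCN2, JUN, LOC112694756, ATF3, SERPINB8, EGR1, CCN1 and ABCC3. LURAP1L had 3.20, 18.5 and 20.8 TPM (SD 1.33 on the log2 scale), the cytokine TNFSF18 3.43, 17.3 and 15.4 TPM, and the iron-binding lipocalin LCN2 5.00, 11.4 and 23.8 TPM. Replicate 1 was the lowest library for 9 of these 10, the exception being LOC112694756 with 55.8, 19.8 and 70.5 TPM. Among the 10 with the smallest SD were ZW10, TANGO2, EEF1G, OSBP, KCTD20, DCPS, GON4L, PHLDA3 and RAB1A. ZW10, a kinetochore protein, had 19.2 TPM in each library, and the elongation factor subunit EEF1G had 2407, 2414 and 2401 TPM. Such minima are picked from many genes, and their spread is at or below counting error.

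The usual reference genes differed in steadiness. RPL13A had a CV of 2.94%, B2M of 4.21%, RPLP0 of 4.46%, TBP of 10.3%, GUSB of 11.02%, ACTB of 11.2%, YWHAZ of 11.7%, TFRC of 15.4% and HPRT1 of 16.1%. PPIA reached 23.0%, PGK1 31.3%, GAPDH 33.6% and SDHA 35.1%. SDHA, a subunit of succinate dehydrogenase, had 73.3, 43.6 and 39.8 TPM. All 4 genes with a CV above 20% were highest in replicate 1. As a family, cytosolic ribosomal protein genes had a median CV of 4.93% and mitochondrial ribosomal protein genes of 7.51%, below the 11.6% of all expressed genes, and no member of either had a CV above 25%.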

How the data were processed

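RNA of 3 cultures of parental HCT116 cells (*ZK3*-WT) was analysed, and the 3 libraries of edited cells were not used. The authors prepared stranded libraries of polyadenylated RNA and aligned paired reads to hg19 with Bowtie 2 version 2.2.5, per the submitters' processing notes. The counting tool is not given in the sources used here. The methods name Partek Flow and an Ensembl annotation, but the identifiers deposited are those of NCBI Gene with RefSeq transcripts. The authors deposited 1 table of 46427 genes with a raw read count per gene and library. Beside it the authors gave FPKM (divided by gene length and sequencing depth). A deposited TPM column, with nearly the same total in each library, was used for all levels. Reads per library were 60827060, 67756654 and 68635701.

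Genes were ranked by mean TPM, and protein-coding genes were taken from the table's own biotype (19672 genes). Spread was given as SD, as CV and as SD of log2(TPM + 1). A dispersion with an intercept only was estimated with edgeR 4.0.16 in R 4.3.3 after TMM normalization, and DESeq2 1.42.0 gave alternative size factors. The dispersion script was tested on simulated data. No group was compared and no p-value was computed. Promoter windows and coordinates came from the GRCh37 genome and a GENCODE annotation lifted to it, matched by symbol. The gene lists, families and the rule for named genes were chosen with earlier results of these data known. The rule names the 20 protein-coding and 10 other genes of highest level, the defining, highest and known low members of each list, the 10 most and 10 least variable genes above 10 TPM and all reference genes. AREG and the genes of the globin region were added after their values were seen. Some genes and sequences that this rule or these lists include are not reported here. Intervals and limits cover counting error only. Alternatives are given in the closing section.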

Additional observations from a re-analysis of the deposited data

How the results depend on the processing

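Each alternative changed 1 choice. The number of expressed protein-coding genes ran from 11263 (FPKM of at least 1) to 13642 (at least 10 reads in each library), and the number of silent ones from 3754 to 5253 (TPM under 0.1). Counting reads without length scaling raised the number of genes holding 50% of the total from 164 to 877 and lowered the share of the 10 highest protein-coding genes from 22.2% to 10.6% and that of ribosomal protein genes from 13.5% to 6.09%. Restricting the total to protein-coding genes gave shares of 23.6% and 14.4%. Leaving out mitochondrial genes, an alternative added after seeing the data, gave 593 genes, 6.48% and 18.4%. The scalings tried on the counts of list genes highest in one library were also chosen after seeing the data. The differences in these shares follow from the length term and the denominator. Without a filter the median CV was 14.4% in place of 11.6%. Leaving out each library in turn gave a median CV of 7.65% to 10.7%, a median SD of 0.10 to 0.14 on the log2(TPM + 1) scale (0.15 with all 3) and a biological coefficient of variation of 13.7% to 19.7%, with the lowest value of each without replicate 1. For a value that is a mean over the 3 libraries, leaving out 1 of them cannot move it by 1 SD, so this says nothing about the stability of the mean levels and shares. Other alternatives left counts of genes within 1.5 times and the remaining values within their spread. No paired analysis was possible because no groups were compared. Depth limits only genes with few reads: the median expressed gene had 2279 reads per library.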

Other observations

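Some families outside the lists above were also read out. Zinc finger genes picked by symbol, a mixed set of KRAB and other types, were expressed in 355 of 517 cases (68.7%, beside 61.4% of all protein-coding genes). Their median was 4.62 TPM over all members, against 6.56 TPM for all protein-coding genes, and 2 members were above 100 TPM in each library. In 199 of the 355, replicate 2 was the highest library, beside 4459 of all 12073 expressed protein-coding genes. The median deviation in replicate 2 was 0.084 on the log2(TPM + 1) scale, and other scalings were not tried for this family. Solute carriers were expressed in 222 of 377 cases (58.9%) with 13 above 100 TPM. Proteasome subunits were expressed in 36 of 39 cases and mitochondrial ribosomal proteins in 78 of 78.

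Neuronal channel subunits gave a few sizeable values. Of 39 receptor channels for GABA, glutamate and glycine, 22 had 0 reads and 8 were expressed, beside 19.1% and 61.4% of all protein-coding genes. The highest were the NMDA receptor subunit GRIN2D with 18.1 TPM, GABRD with 10.7 TPM and GRIN1 with 5.02 TPM. Among other intermediate filaments, LMNA had 305 TPM, LMNB2 164 TPM and LMNB1 76.0 TPM, with nestin (NES) at 8.47 TPM and peripherin (PRPH) at 6.39 TPM. Of 93 keratin-associated protein genes, KRTAP2-3 stood out with 23.2 TPM. Of 24 bitter taste receptors, 4 were expressed, with TAS2R5 the highest at 3.59 TPM. Long noncoding RNAs were expressed in 1001 of 14763 cases and held 1.21 ± 0.120% of all TPM (SD, n = 3). The snoRNA hosts SNHG1 and ZFAS1 had 327, 517 and 563 TPM and 275, 468 and 551 TPM, lowest in replicate 1, and SNHG6 had 206, 194 and 202 TPM.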
